A study of Mus musculus with 12 samples.

Results

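What the Tbet flox genotype changed in regulatory T cells (Tregs) of both adipose tissue and spleen was measured over all 12 arrays of the series, 6 of Tbet flox and 6 of control mice. The arrays were assigned by the genotype in their labels, so no measured value chose them. Each tissue entered the fit as a fixed term, and the arrays of each tissue were weighted by their own spread. The 4 groups held 3 arrays each: Tbet flox Tregs of perigonadal white adipose tissue (PGWAT), control Tregs of PGWAT, Tbet flox Tregs of spleen and control Tregs of spleen. All mice were C57BL/6 on a high fat diet, and all carried Foxp3-YFP-Cre, which makes Cre recombinase and a yellow fluorescent protein in cells that use the Foxp3 promoter. The Tbet flox mice also carried floxed Tbx21, the gene of T-bet, which Cre removes in Foxp3-expressing cells. Age, sex and whether the samples came from separate or shared mice are not given in the labels, so the p-values below measure the spread between these samples, which may be technical.

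T-bet is a transcription factor of the T-box family that directs type 1 T cell responses. In T cells it switches on the genes of interferon gamma and of the chemokine receptor CXCR3. Some Tregs take up T-bet as they meet type 1 inflammation, while Tregs of visceral fat are better known for type 2 and tissue repair features, such as GATA3, the receptor for interleukin-33 and interleukin-10. The comparison asks which genes the genotype moved in both places.

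The promoters of 4 genes on which the results turn are shown first, with 250 bases before and 50 bases after the transcription start (RefSeq, GRCm38.p6, strand of the gene). Ifng (interferon gamma) lies at chr10:118440796-118441095 on the plus strand and Cxcr3 at chrX:101734098-101734397 on the minus strand. Hspa1a and Hspa1b, a pair of inducible heat shock genes, lie at chr17:34972107-34972406 and chr17:34959189-34959488 on the minus strand. Capitals mark TCACAC, the core of the T-box element, in Cxcr3 and GAANNTTC, the core of the heat shock element, in Hspa1a and Hspa1b. Both strands were searched, so GTGTGA counted as well, and no 2 matches overlapped.
Ifng: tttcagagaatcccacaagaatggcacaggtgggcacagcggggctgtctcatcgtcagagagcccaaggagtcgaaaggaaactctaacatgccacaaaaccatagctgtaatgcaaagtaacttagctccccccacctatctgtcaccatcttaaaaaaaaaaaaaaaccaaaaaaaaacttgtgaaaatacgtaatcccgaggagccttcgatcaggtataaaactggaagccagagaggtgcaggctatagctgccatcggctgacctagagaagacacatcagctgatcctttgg
Cxcr3: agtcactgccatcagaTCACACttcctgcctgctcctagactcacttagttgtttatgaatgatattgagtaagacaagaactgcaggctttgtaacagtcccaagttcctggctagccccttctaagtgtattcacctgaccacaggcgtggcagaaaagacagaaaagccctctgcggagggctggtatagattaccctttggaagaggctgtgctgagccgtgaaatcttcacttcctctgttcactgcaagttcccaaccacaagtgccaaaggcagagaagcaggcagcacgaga
Hspa1a: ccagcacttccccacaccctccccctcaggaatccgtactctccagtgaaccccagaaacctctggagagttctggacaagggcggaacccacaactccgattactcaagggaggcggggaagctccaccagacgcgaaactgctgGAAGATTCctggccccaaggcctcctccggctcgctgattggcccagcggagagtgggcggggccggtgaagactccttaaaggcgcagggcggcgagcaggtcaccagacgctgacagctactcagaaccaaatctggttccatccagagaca
Hspa1b: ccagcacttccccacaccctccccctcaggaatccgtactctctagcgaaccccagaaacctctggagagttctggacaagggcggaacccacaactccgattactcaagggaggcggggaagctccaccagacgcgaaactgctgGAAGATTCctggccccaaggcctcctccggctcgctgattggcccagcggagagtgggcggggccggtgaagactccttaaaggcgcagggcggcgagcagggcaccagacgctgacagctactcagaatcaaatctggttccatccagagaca
The Cxcr3 window held 1 T-box core, 234 bases before the start, and the Ifng window held 0. The Hspa1a and Hspa1b windows held 1 heat shock core each, 104 bases before the start, and 296 of their 300 bases were identical (98.7%). Of 32851 promoters of the same length, 14.5% held a T-box core and 7.86% a heat shock core, so a match describes the letters only.

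Levels are log2 normalised intensities. Each value of a change is the Tbet flox mean minus the control mean on that scale, so 1 unit is a factor of 2, and an offset added before the log shrinks the changes of dim probes. An array detected between 11252 and 17090 of its 45281 probes at a detection p under 0.01, and 15308 genes and unnamed probes were tested. The spleen arrays of a group correlated at 0.978 to 0.991 and the PGWAT arrays at 0.774 to 0.872. The weight of an array came to 0.313 in PGWAT and 3.20 in spleen. By the array codes in the labels, PGWAT and spleen were run on separate chips, so tissue and chip cannot be told apart. On both chips the control arrays took the first 3 positions and the Tbet flox arrays the last 3, so position and genotype cannot be told apart either. In PGWAT, control 1 correlated least with its group and Tbet flox 3 had the fewest detected probes. Some results, named where given, were also fitted without these 2 arrays, and most genes below are not shown without them. PGWAT Tbet flox 1 had the highest Tbx21 level of all arrays.

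The labelled cell type was checked first. Foxp3, which defines Tregs, was detected on all 12 arrays, and Cd3g, a chain of the T cell receptor complex, was detected on all 12 as well. The macrophage genes C1qa, C1qb, C1qc, Mrc1, Adgre1, Lyz2 and Cd163 were also detected on all 12 arrays. The adipocyte genes Lep and Fabp4 were detected on all PGWAT arrays and on no spleen array.

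Tbx21 had levels of 8.45, 4.86 and 4.54 in PGWAT Tbet flox and 4.62, 7.40 and 4.96 in PGWAT control. In spleen it had 4.94, 4.98 and 4.71 in Tbet flox and 4.80, 6.03 and 4.95 in control. The groups overlapped in both tissues, and 1 array in each of 3 groups stood above an otherwise dim signal. Averaged over the tissues the change was -0.05 ± 0.60 (SE), with an exact two-sided permutation p of 0.855 over 400 relabellings within tissues, whose smallest possible p is 0.005. Its sign turned when any of 4 single arrays was left out. Whether the probe lies in the floxed part of the gene is not given in the sources used here, so its level checks neither the deletion nor the labels. Foxp3 changed by 0.36 ± 0.44 (exact two-sided permutation p = 0.685), and its 2 other probes had changes of -0.09 and -0.70 (limma adjusted p = 0.958 and 0.479).

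Averaged with equal shares of the tissues, 23 of 15308 genes passed a limma adjusted p under 0.05 (0.15%). In Tbet flox 12 of them (0.0784%) were higher and 11 (0.0719%) were lower. At an unadjusted p under 0.05 there were 1643 (10.7%). Of the 23, 20 carry a gene name, 10 in each direction. The PGWAT change was at least 2 times the spleen change in 22 of the 23, and Ifng was the 1 gene for which it was not. All 23 had groups that did not overlap in PGWAT (14.5% of all genes tested did so), and 9 had groups that did not overlap in either tissue, in the same direction (1.86% of all tested). A choice by p from the same values favours groups that stand apart, so these shares follow in part from the choice. Of the 23 calls, 20 were also calls in PGWAT alone by this fit and 2 in spleen alone, and 7 had changes of opposite sign in the tissues. The number of calls was 3 without PGWAT control 1 and PGWAT Tbet flox 3, and from 7 to 56 when single arrays were left out, with 56 without PGWAT control 2.

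A test that asks for a change in both tissues, with the larger of the within-tissue p-values as its p, called 0 genes (0%) at a limma adjusted p under 0.05, and every adjusted p was 1. At an unadjusted p under 0.05 it held 161 genes (1.05%), 88 higher and 73 lower in Tbet flox. The smallest of these p-values was that of Ifng (0.000354), followed among named genes by Neb (0.00132), Fam8a1 (0.00148), Gtse1 (0.00163) and Exosc9 (0.00192); Fam8a1 and Gtse1 were chosen after their values were seen.

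Over all genes tested the measured genotype changes of the tissues were not correlated in these arrays. The changes had the same sign in 50.3% of genes, and their correlation across genes was 0.01 (rank correlation 0.00), where genes are not independent and share the arrays of their tissue. The spread of the PGWAT arrays lowers such a correlation, so it cannot show that the changes themselves are unrelated. The groups did not overlap in either tissue in 285 genes with changes of 1 sign (1.86%), 168 higher (1.1%) and 117 lower (0.764%) in Tbet flox, and in 275 that went opposite ways (1.8%). In spleen the same fit called 269 genes (1.76%), 103 higher (0.673%) and 166 lower (1.08%), with 17.9% at an unadjusted p under 0.05. In PGWAT it called 32 (0.209%), 18 higher (0.118%) and 14 lower (0.0915%), with 9.94% at an unadjusted p under 0.05. Of the 269 calls in spleen, 150 had the same sign in PGWAT (55.8%), and of the 32 calls in PGWAT, 17 had the same sign in spleen (53.1%). No gene was called in both.

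**Figure D1:**
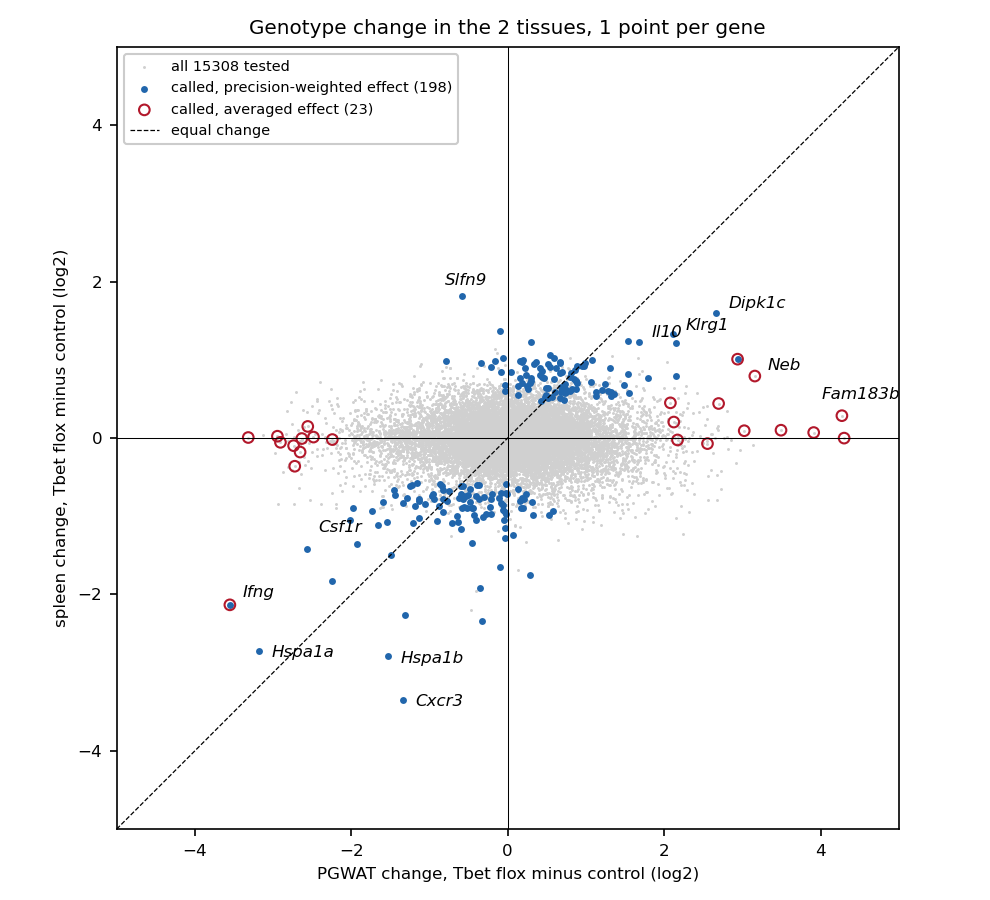
Genotype change (Tbet flox minus control, log2) in PGWAT on the x axis and in spleen on the y axis for each of the 15308 genes tested, with calls of the averaged effect ringed and calls of the precision-weighted effect filled. The 23 ringed calls lie along the PGWAT axis except Ifng, and the 198 filled calls spread along the spleen axis.

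Ifng had the largest change among the named genes that passed with equal shares. It encodes interferon gamma, the main cytokine of type 1 T cells. Its levels were 6.81, 6.21 and 4.83 in PGWAT Tbet flox and 9.52, 9.97 and 9.02 in PGWAT control. In spleen they were 5.51, 4.82 and 5.32 in Tbet flox and 7.10, 7.84 and 7.11 in control. Every Tbet flox array lay below every control array of its tissue, and the gap between the nearest arrays was larger in PGWAT than in spleen. On PGWAT Tbet flox 3 Ifng (4.83) was below the dimmest signal detected on that array (4.96). On spleen Tbet flox 2 it (4.82) was close to that limit (4.78), so the sizes of its changes are approximate. The change was -3.55 ± 0.74 in PGWAT (SE, 11.7-fold lower) and -2.13 ± 0.23 in spleen (4.39-fold lower), and averaged over the tissues Ifng fell by 2.84 ± 0.39 (7.17-fold, limma adjusted p = 0.0141). A difference between its tissue changes was not detected (limma adjusted p = 0.56). A second probe of the gene had an averaged change of -2.34 (limma adjusted p = 0.116 in a fit of all probes) with the same sign in both tissues.

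The Ifng call was not held by every choice of arrays. Its limma adjusted p was 0.0506 without PGWAT Tbet flox 2, 0.0776 without PGWAT Tbet flox 3 and 0.14 without PGWAT control 1 and Tbet flox 3 together, while the change stayed between -3.06 and -1.79 under all alternatives. In the Treg bulk samples, fewer cells with Ifng RNA and less of it per cell cannot be told apart. The 7.17-fold averaged fall of Ifng stands beside macrophage markers that measured lower on the same arrays, as given further on, and their part in it was not tested.

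The precision-weighted reading of the same design fits 1 genotype change common to both tissues, so that each tissue counts by its precision. Here 91.5% of the weight lay on spleen and 8.54% on PGWAT. It called 198 genes at a limma adjusted p under 0.05 (1.29%), of which 96 rose (0.627%) and 102 fell (0.666%) in Tbet flox, and 2531 at an unadjusted p under 0.05 (16.5%). Of the 198 calls, 175 had the same sign in both tissues (88.4%, against 50.3% of all genes tested). Groups were apart in both tissues in 57 (28.8%, against 1.86%). A fit of 1 common change favours genes whose tissues move alike, so these shares follow in part from the fit. Of the 198, 2 were among the 23 calls with equal shares, 163 were also calls in spleen and 0 in PGWAT. This reading was made a result of its own after the data were seen, and it depended on the weights and on single spleen arrays. With no array weights it called 0 genes, with 1343 at an unadjusted p under 0.05, and it called 12 without spleen Tbet flox 1, 25 without spleen control 1, 27 without spleen Tbet flox 3 and 75 without spleen Tbet flox 2. Ifng, Cxcr3, Hspa1a, Hspa1b and Crip2 passed in each of the 12 fits that left out 1 array.

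The size of many changes depended on which values were used. Followed gene by gene were 28 of the 123 precision-weighted calls with a gene name and 17 of the 20 averaged ones. With the authors' processed values, 17 of the 28 and 15 of the 17 were smaller by over 1.5 times. Of the same genes, 7 of the 28 and 8 of the 17 did not pass. Precision-weighted, Ifng then changed by -1.20 (limma adjusted p = 0.011), Cxcr3 by -1.69 (0.00397) and Crip2 by -0.45 (0.0134), which passed. Il10, Il2ra, Fbxo8, Csf1r, Tgfbi, Ifi207 and Nr4a2 did not, with limma adjusted p from 0.0583 to 0.389. With equal shares Ifng changed by -1.79 (limma adjusted p = 0.0176), and Neb, Mterf1a, Mterf1b, Hlf, Mmp25, Fam172a, Bcl6b and Chp2 did not pass, with limma adjusted p from 0.053 to 0.103.

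Among type 1 genes, Cxcr3 fell the most by this reading. CXCR3 is the chemokine receptor that brings type 1 cells to sites of interferon gamma, and its gene is a known target of T-bet. Its levels were 7.81, 5.23 and 4.46 in PGWAT Tbet flox and 5.92, 7.59 and 8.0 in PGWAT control. In spleen they were 5.00, 4.38 and 4.67 in Tbet flox and 7.93, 8.53 and 7.65 in control. The gene was above background on 1 of 3 spleen Tbet flox arrays and on 2 of 3 PGWAT Tbet flox arrays, so its changes have only an approximate size. The spleen groups stood far apart, while in PGWAT the array Tbet flox 1, which also had the highest Tbx21 level, lay within the control range. The change was -1.34 ± 0.92 in PGWAT and -3.35 ± 0.29 in spleen (SE), and the precision-weighted change was -3.18 ± 0.30 (limma adjusted p = 0.00084). With equal shares it was -2.34 ± 0.48 and did not pass (limma adjusted p = 0.0943). Ifng by the same reading fell by 2.25 ± 0.24 (4.77-fold, limma adjusted p = 0.00151). Without array weights the limma adjusted p was 0.441 for Cxcr3 and 0.109 for Ifng.

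**Figure D2:**
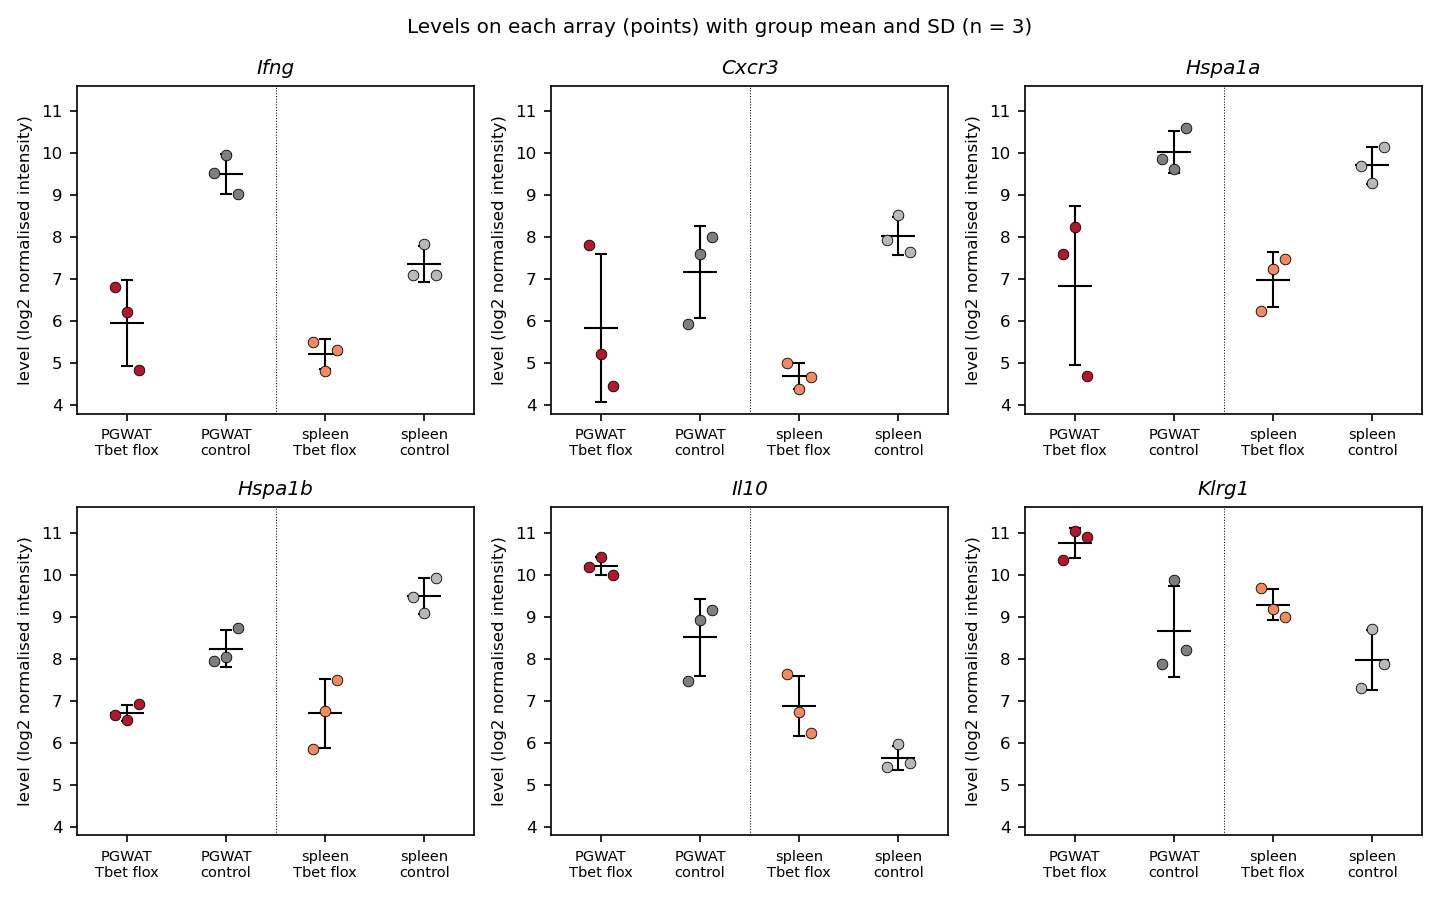
Level (log2 normalised intensity) of Ifng, Cxcr3, Hspa1a, Hspa1b, Il10 and Klrg1 on each of the 12 arrays by group, with bars for the mean and SD of 3 arrays. Tbet flox and control arrays do not overlap in either tissue for 5 of the genes, and for Cxcr3 they overlap in PGWAT through the Tbet flox array at 7.81.

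The type 1 module as a whole held 16 tested genes of 22 listed. With equal shares 2 of them fell, Ifng and Ccl3, 0 rose, and the median change was -0.29, against 0.01 over all genes tested. Over all genes tested 0.0719% were called lower with equal shares and 0.666% weighted by precision. Weighted by precision, 4 fell and 0 rose: Ifng, Cxcr3, Ccl5 (-0.86 ± 0.18, limma adjusted p = 0.0346), a chemokine of activated T cells, and Il18r1 (-0.77 ± 0.16, limma adjusted p = 0.0346), a chain of the interleukin-18 receptor. Ccl5 and Il18r1 were chosen after their values were seen. Signs matched in 11 of the 16, 4 higher and 7 lower in both tissues, and the groups stood apart in both tissues only for Ifng. Ccl3, a macrophage and T cell chemokine gene, had levels of 5.54, 6.03 and 4.36 in PGWAT Tbet flox and 8.04, 7.78 and 8.01 in PGWAT control. In spleen Ccl3 was not detected on any array, so its averaged change of -1.32 ± 0.23 (limma adjusted p = 0.0488) came from PGWAT alone. It passed in 0 of the 12 fits without 1 array (limma adjusted p from 0.0506 to 0.131).

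Both Hspa1 genes measured far lower in Tbet flox in both tissues. They encode nearly identical inducible HSP70 chaperones, so their probes may share signal and the genes are given together. Hspa1a had levels of 7.60, 8.24 and 4.69 in PGWAT Tbet flox and 9.86, 9.63 and 10.59 in PGWAT control. In spleen it had 6.24, 7.25 and 7.48 in Tbet flox and 9.69, 9.29 and 10.16 in control. Hspa1b had 6.66, 6.55 and 6.92 in PGWAT Tbet flox against 7.94, 8.04 and 8.74 in PGWAT control, and 5.85, 6.76 and 7.49 in spleen Tbet flox against 9.47, 9.08 and 9.93 in spleen control. The groups of both genes were apart in both tissues. Hspa1a on PGWAT Tbet flox 3 (4.69) was below the dimmest signal detected on that array (4.96), so the size of its PGWAT change is approximate.

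By the precision-weighted reading Hspa1a fell by 2.76 ± 0.31 (6.78-fold) and Hspa1b fell by 2.69 ± 0.31 (6.43-fold), each with a limma adjusted p of 0.00174. With equal shares they changed by -2.95 ± 0.56 and -2.16 ± 0.53 and did not pass (limma adjusted p = 0.0612 and 0.166). A second probe of Hspa1b passed with equal shares in a fit of all probes (-2.34, limma adjusted p = 0.0123), as did 1 of the 2 other probes of Hspa1a (-2.41, limma adjusted p = 0.0361), and every probe of both genes had a negative change in both tissues. Of 17 tested genes of the heat shock and unfolded protein list these were the 2 that fell by the precision-weighted reading, and 0 rose. Over all genes tested 0.666% fell and 0.627% rose by it. In PGWAT 15 of the 17 measured lower and in spleen 13, 11 of them in both, with medians of -0.34 and -0.13, against 0.04 and -0.01 over all genes. Dnajb1, which encodes an HSP40 partner of these chaperones and was chosen after its values were seen, had groups apart in both tissues with a precision-weighted change of -0.47 ± 0.13 that did not pass (limma adjusted p = 0.0818). Hspa4, of the HSP110 family and not on the list, rose by 0.65 ± 0.11 (limma adjusted p = 0.0208) and was chosen after its values were seen.

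Il10 and Klrg1 rose by the precision-weighted reading. Il10 encodes the suppressive cytokine interleukin-10, and its levels were 10.19, 10.41 and 9.99 in PGWAT Tbet flox and 7.46, 8.91 and 9.16 in PGWAT control. In spleen they were 7.65, 6.73 and 6.24 in Tbet flox and 5.42, 5.97 and 5.52 in control. Every Tbet flox array lay above every control array of its tissue, and in spleen the nearest arrays, 6.24 and 5.97, were close. Il10 rose by 1.27 ± 0.26 (2.42-fold, limma adjusted p = 0.0346), with changes of 1.68 ± 0.90 in PGWAT and 1.23 ± 0.28 in spleen. With the authors' processed values its precision-weighted change was 0.71 and did not pass (limma adjusted p = 0.0611).

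Klrg1, a receptor of terminally differentiated T cells and effector Tregs, had levels of 10.36, 11.03 and 10.90 in PGWAT Tbet flox and 7.86, 9.88 and 8.20 in PGWAT control. In spleen it had 9.69, 9.19 and 8.99 in Tbet flox and 7.30, 8.71 and 7.86 in control. The groups were again apart in both tissues, with 1 control array of each tissue near the Tbet flox range. Klrg1 rose by 1.40 ± 0.28 (2.63-fold, limma adjusted p = 0.0336). With equal shares Il10 and Klrg1 changed by 1.46 and 1.72 and did not pass (limma adjusted p = 0.281 and 0.217). Of the 12 fits without 1 array, Il10 passed in 8 and Klrg1 in 7. The limma adjusted p without spleen Tbet flox 1 was 0.132 for Il10 and 0.172 for Klrg1, and without spleen control 1 it was 0.133 for each.

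Effector and adipose Treg genes measured mostly higher in Tbet flox. Of 16 tested, 14 were higher in PGWAT and 14 in spleen, 12 of them in both, with medians of 0.72 and 0.42, against 0.04 and -0.01 over all genes. On the same arrays the macrophage medians were -1.92 in PGWAT and -0.79 in spleen and the T cell identity medians were 0.50 and -0.01, and their part in this was not tested. The 2 that rose by the precision-weighted reading were Il10 and Klrg1, and 0 fell, against 0.627% and 0.666% of all genes tested. Ccr2, a receptor for monocyte chemokines, also had groups apart in both tissues by the probe used. Its averaged change of 1.5 ± 0.34 did not pass (limma adjusted p = 0.138). The other Ccr2 probe changed by 0.97 in PGWAT and -0.08 in spleen. Gata3 changed by 2.23 ± 0.61 in PGWAT and by -0.02 ± 0.19 in spleen, and neither passed.

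Of 16 Treg core genes, 15 measured higher in PGWAT and 12 in spleen, 11 in both, with medians of 0.80 and 0.14, against 0.04 and -0.01 over all genes. On the same arrays the macrophage medians were -1.92 and -0.79, the stromal median was -0.87 in PGWAT and the T cell identity medians were 0.50 and -0.01; their part in the Treg core values was not tested. By the precision-weighted reading 2 rose and 0 fell, against 0.627% and 0.666% of all genes tested. Tnfrsf18, which encodes the costimulatory receptor GITR, rose by 0.75 ± 0.16 (limma adjusted p = 0.0383), and its second probe had the same sign in both tissues. Its levels were 8.58, 9.51 and 9.15 in PGWAT Tbet flox and 7.2, 8.37 and 7.21 in PGWAT control, and in spleen 9.42, 9.08 and 8.98 in Tbet flox and 8.40, 8.70 and 8.33 in control. Il2ra, the high-affinity chain of the interleukin-2 receptor, rose by 0.66 ± 0.15 (limma adjusted p = 0.0455), but passed in 0 of the 12 fits without 1 array (limma adjusted p from 0.0507 to 0.215). Ctla4, which encodes an inhibitory receptor of Tregs, had groups apart in both tissues and did not pass (0.50 ± 0.13, limma adjusted p = 0.0818).

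Of 15 checkpoint and costimulation genes 1 rose by the precision-weighted reading, against 0.627% of all genes tested. It was Tnfsf11 (RANK ligand, 0.74 ± 0.15, limma adjusted p = 0.0336), whose PGWAT groups overlapped. With equal shares Tnfsf11 did not pass (limma adjusted p = 0.201). Of 15 cell cycle genes, 14 measured higher in PGWAT and 12 in spleen, 11 in both, with medians of 0.68 and 0.24, against 0.04 and -0.01 over all genes. By the precision-weighted reading 2 rose, Top2a (1.15 ± 0.23, limma adjusted p = 0.0336), the topoisomerase of dividing cells, and Tyms (0.75 ± 0.16, limma adjusted p = 0.0435), thymidylate synthase. Both had PGWAT groups that overlapped, and both were chosen after their values were seen. Over all genes tested 0.627% rose by this reading. On the same arrays the macrophage medians were -1.92 in PGWAT and -0.79 in spleen, and their part in the cell cycle values was not tested. Cdk4, a kinase of the step into the cell cycle that was on no list, rose by 0.86 ± 0.18 (limma adjusted p = 0.0346) with groups apart in both tissues, but another of its probes went the other way.

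The precision-weighted calls with groups apart in both tissues included 33 named genes, 16 higher and 17 lower in Tbet flox. The genes of this and the next sentences were chosen after their values were seen. Dipk1c, a kinase-like gene, had the largest rise, with levels of 9.40, 8.81 and 8.63 in PGWAT Tbet flox and 4.36, 6.6 and 7.87 in PGWAT control. In spleen Dipk1c had 7.22, 7.29 and 6.4 in Tbet flox and 5.80, 5.51 and 4.78 in control. It rose by 1.70 ± 0.30 (3.24-fold, limma adjusted p = 0.0208), and the PGWAT controls were scattered over more than 3 units. Also higher were Gm10413 (0.88), Tmem175 (0.64), a lysosomal ion channel gene, Ap4s1 (0.62), an adaptor complex subunit gene, Fbxo8 (0.59) and H3c14 (0.53), a histone H3 gene.

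Among the lower genes, Noct, a clock-controlled phosphatase gene, had 6.94, 6.47 and 6.06 in PGWAT Tbet flox and 8.81, 7.96 and 7.34 in PGWAT control. In spleen Noct had 6.33, 6.55 and 6.61 in Tbet flox and 7.92, 7.75 and 7.05 in control. It fell by 1.11 ± 0.19 (2.17-fold, limma adjusted p = 0.0208). Crip2, a LIM domain gene, had 8.18, 8.08 and 8.55 in PGWAT Tbet flox against 9.19, 8.88 and 8.85 in PGWAT control, and 5.42, 4.83 and 4.99 in spleen Tbet flox against 6.23, 6.36 and 5.92 in spleen control. It fell by 1.05 ± 0.15 (limma adjusted p = 0.0079) and was stable to the loss of any 1 array. Trim25 (-0.73), a ubiquitin ligase of antiviral signalling, Sema4a (-0.88), a semaphorin of lymphocyte costimulation, Ifi207 (-0.88), an interferon-inducible gene, Kctd20 (-0.81) and Msantd1 (-1.16) were lower as well. Kctd20, Cdk4 and H3c14 had another kept probe of opposite sign. Of 61 precision-weighted calls with several kept probes 22 had such a probe. None of the 8 averaged calls with several kept probes had one by the averaged change, but second probes of Fam172a and Mterf1b changed by -0.27 and 0.31 in PGWAT, where the probes used changed by 2.12 and 3.49.

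**Figure D3:**
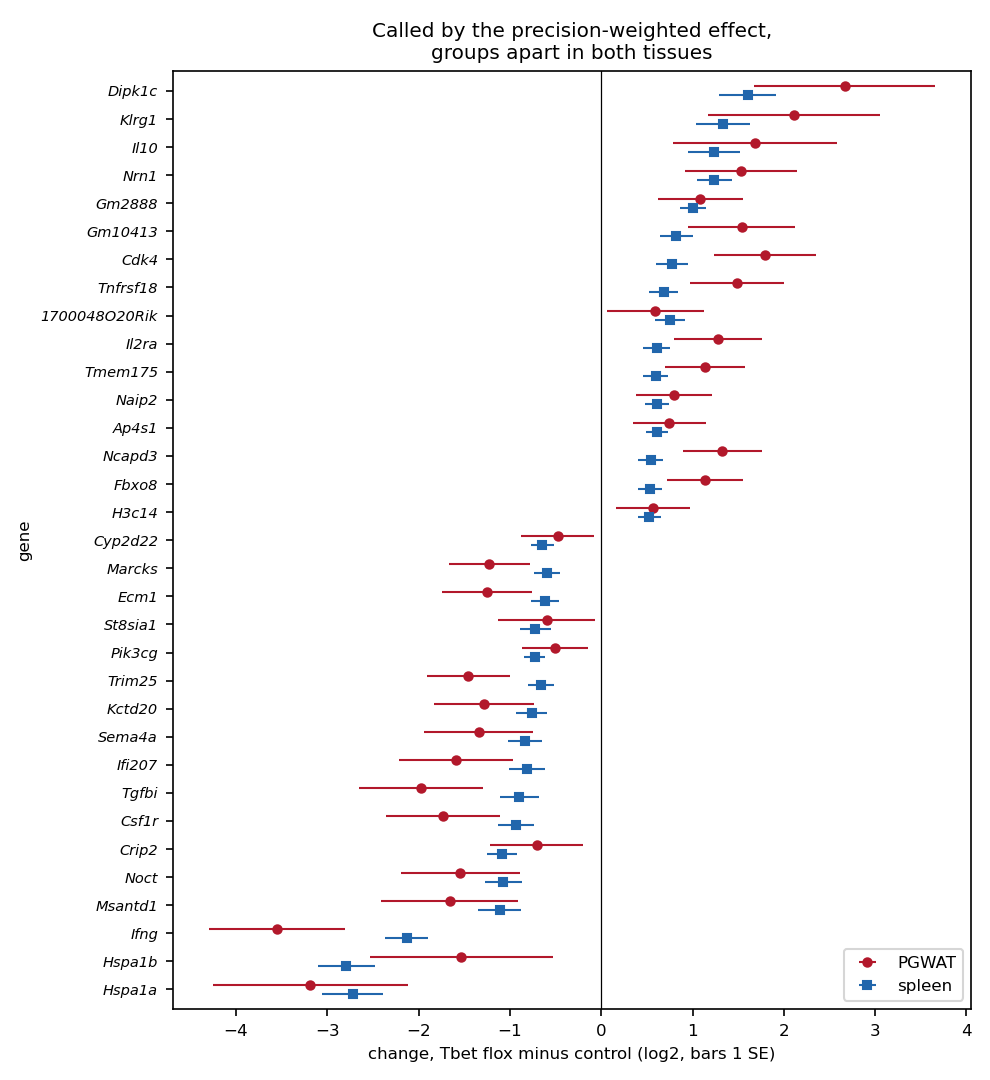
Change in PGWAT (circles) and spleen (squares), Tbet flox minus control in log2 units with bars of 1 SE, for the 33 named genes called by the precision-weighted effect whose groups were apart in both tissues. The PGWAT bars are the wider ones throughout, and Hspa1a, Hspa1b and Ifng have the largest falls.

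Slfn9, of the Schlafen family of T cell quiescence genes, was called without a change shared by the tissues by the probe used. It had levels of 4.46, 6.6 and 5.11 in PGWAT Tbet flox and 7.66, 5.81 and 4.48 in PGWAT control, groups that overlapped. In spleen it had 7.65, 7.50 and 7.41 in Tbet flox and 5.92, 5.81 and 5.35 in control. The common term rose by 1.62 ± 0.28 (limma adjusted p = 0.0209) while the PGWAT change was -0.59 ± 0.77. A second Slfn9 probe was higher in both tissues, by 1.43 in PGWAT and 1.10 in spleen. In a fit of all probes its precision-weighted change of 1.13 passed (limma adjusted p = 0.0027), and with equal shares it did not (limma adjusted p = 0.0622).

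Macrophage and monocyte markers measured lower in Tbet flox in both tissues. Of 9 tested, 9 were lower in PGWAT and 8 in spleen, with medians of -1.92 and -0.79 and an averaged median of -1.40, against 0.01 over all genes. With equal shares the smallest limma adjusted p among them was 0.0612, that of C1qa, and 8 of the 9 were negative in both tissues. By the precision-weighted reading 2 fell, Csf1r, the receptor that macrophages need to survive, and Cd163, a scavenger receptor chosen after its values were seen. Over all genes tested 0.666% fell by this reading. Csf1r had levels of 7.33, 7.44 and 4.82 in PGWAT Tbet flox and 8.08, 8.21 and 8.51 in PGWAT control. In spleen it had 5.09, 4.81 and 5.15 in Tbet flox and 6.12, 5.97 and 5.77 in control. It fell by 1.00 ± 0.19 (limma adjusted p = 0.0261) and Cd163 fell by 1.40 ± 0.32 (limma adjusted p = 0.0495). The other Csf1r probe changed by -2.02 in PGWAT and -0.13 in spleen. Its precision-weighted change of -0.30 did not pass (limma adjusted p = 0.501 in a fit of all probes). With the mean of all kept probes Csf1r did not pass either (limma adjusted p = 0.0595). C1qa, a complement gene of tissue macrophages, had groups apart in both tissues and an averaged change of -1.66 ± 0.31 that did not pass (limma adjusted p = 0.0612). Tgfbi, a matrix gene of monocytes also chosen after its values were seen, fell by 0.99 ± 0.21 (limma adjusted p = 0.0383). The other Tgfbi probe changed by -2.69 in PGWAT and 0.0002 in spleen. Its precision-weighted change of -0.23 did not pass (limma adjusted p = 0.712 in a fit of all probes). With the mean of all kept probes Tgfbi did not pass (limma adjusted p = 0.174).

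The level summed over the macrophage list, as its mean log2 level per array, ran from 6.27 to 9.12 in PGWAT Tbet flox and from 9.89 to 10.3 in PGWAT control, and from 6.10 to 6.56 in spleen Tbet flox and from 6.70 to 7.15 in spleen control. The averaged median was -0.93 without PGWAT Tbet flox 3, and Itgam was the 1 marker on the array that was not detected often enough to be tested. Dendritic cell markers had medians of -0.94 and -0.24 in PGWAT and spleen (5 of 7 lower in both), stromal and endothelial markers -0.87 and -0.01, and adipocyte markers -0.81 and -0.04. T cell identity genes had medians of 0.50 and -0.01, and mast cell markers 1.36 and 0.01. The part of other cell types in the changes of Ifng, Cxcr3, the Hspa1 genes, Il10 and Klrg1 was not tested. Their part in the Treg and cell cycle lists was not tested either. In spleen, the adipocyte genes Adipoq, Lep and Fabp4 and the stromal genes Col1a2, Col3a1, Dcn and Sparc were above background on no array, so the medians of those lists there say little about these cells.

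**Figure D4:**
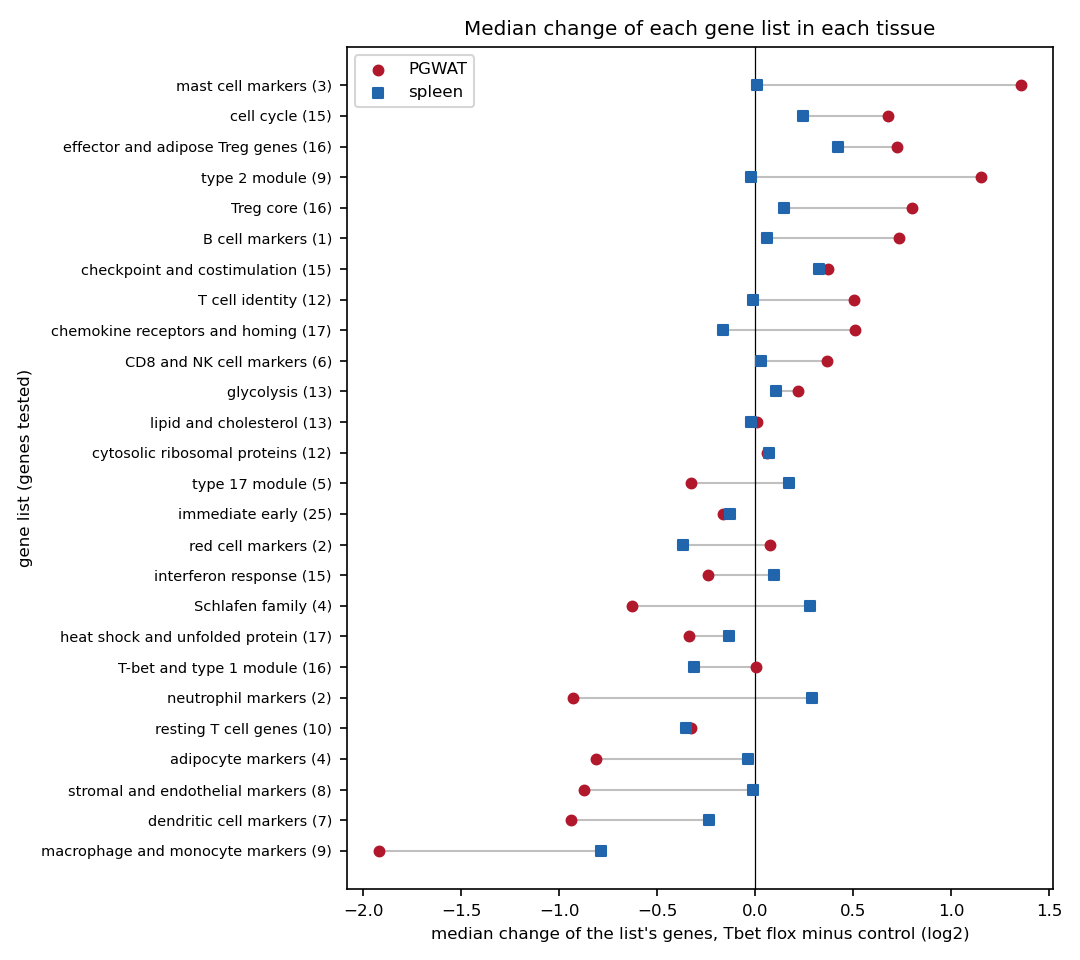
Median change of the tested genes of each of 26 lists, Tbet flox minus control in log2 units, in PGWAT (circles) and spleen (squares), with the number of genes tested in brackets. Macrophage markers are the lowest in both tissues (-1.92 and -0.79), and most lists lie nearer to 0 in spleen than in PGWAT.

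The other averaged calls were nearly all large in PGWAT and small in spleen. Of those higher in Tbet flox, Neb, Exosc9, Acot11 and Fam183b had groups apart in both tissues. Neb, which encodes the muscle filament protein nebulin, had 7.69, 9.11 and 8.37 in PGWAT Tbet flox and 4.38, 5.24 and 6.07 in PGWAT control. In spleen Neb had 7.94, 7.53 and 7.19 in Tbet flox and 6.67, 6.69 and 6.91 in control. It rose by 1.98 ± 0.33 averaged (limma adjusted p = 0.0381), with 3.16 in PGWAT and 0.79 in spleen. Exosc9, of the RNA exosome, had 8.21, 8.88 and 8.63 in PGWAT Tbet flox and 6.36, 6.57 and 6.54 in PGWAT control, and in spleen 9.81, 9.57 and 9.76 in Tbet flox and 9.22, 9.36 and 9.21 in control. It rose by 1.27 ± 0.20 (limma adjusted p = 0.0376), with 0.45 in spleen.

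Acot11, an acyl-CoA thioesterase gene, had 7.30, 6.59 and 7.69 in PGWAT Tbet flox, and none of its PGWAT control arrays was above background, which makes the PGWAT change at least 4.43-fold. In spleen it had 5.94, 6.27 and 6.01 in Tbet flox and 5.59, 5.67 and 5.63 in control. The averaged rise was 1.57 ± 0.22 (limma adjusted p = 0.0141), although 2 other probes changed by -0.11 and -0.21 in spleen. Fam183b, a gene of ciliated cells, had 8.57, 9.12 and 8.63 in PGWAT Tbet flox and was above background on no PGWAT control array, at least 13.2-fold higher. It was above background on 1 of 6 spleen arrays, so its averaged rise of 2.28 ± 0.20 (limma adjusted p = 0.00033) rests on PGWAT. Such a bound compares the bright group with the dimmest signal detected on the other group's arrays.

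Of the 12 fits that left out 1 array, Fam183b passed in 12, Acot11 in 9, Neb and Exosc9 in 3 each and Cdr2 in 1. Acot11 was lost without PGWAT control 1, Tbet flox 1 or Tbet flox 3 (limma adjusted p = 0.0577, 0.0586 and 0.0809), and the limma adjusted p of the others went up to 0.133 for Neb, 0.124 for Exosc9 and 0.12 for Cdr2. Without PGWAT control 1 and Tbet flox 3 together, 2 of the 23 averaged calls passed. Neb, Exosc9, Acot11 and Cdr2 did not pass in that fit (limma adjusted p = 0.204, 0.186, 0.14 and 0.186). Cdr2, a gene known from neuronal autoimmunity, had 4.68, 5.52 and 5.32 in PGWAT Tbet flox and 8.48, 7.14 and 8.07 in PGWAT control. In spleen it was above background on no Tbet flox array and on 2 of 3 control arrays, with a change of -0.36. Its averaged fall was -1.54 ± 0.24 (limma adjusted p = 0.0376).

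**Figure D5:**
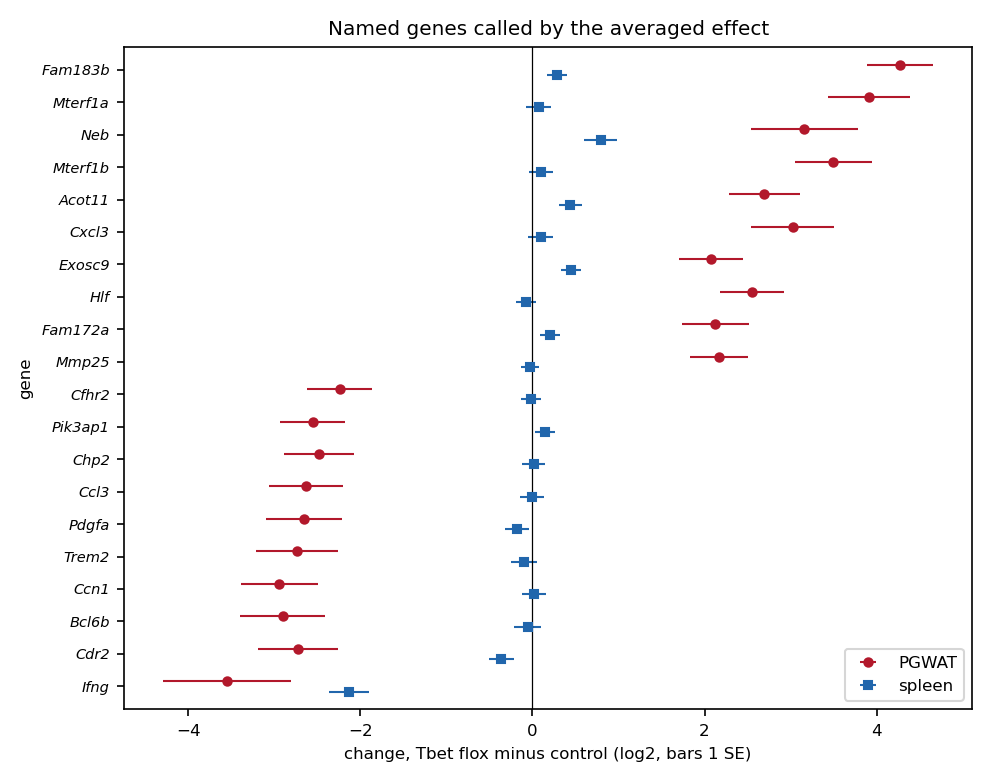
Change in PGWAT (circles) and spleen (squares), Tbet flox minus control in log2 units with bars of 1 SE, for the 20 named genes called by the averaged effect. Ifng has the largest spleen change (-2.13), and the spleen changes of the other 19 lie between -0.36 and 0.79.

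For 9 of the 23 averaged calls the tissue changes differed by their own test. Over all genes 11 passed that test (limma adjusted p under 0.05, 0.0719%), 8 with a PGWAT change above the spleen change (0.0523%) and 3 with one below it (0.0196%). Mterf1a and Mterf1b, near-identical genes of a mitochondrial transcription terminator whose probes may share signal, had averaged changes of 1.99 ± 0.25 and 1.80 ± 0.23, against 0.07 and 0.10 in spleen. Mterf1a was above background on no PGWAT control array and at least 9.24-fold higher in PGWAT Tbet flox. Hlf, a transcription factor of the PAR family, and Mmp25, a membrane metalloprotease gene, were above background on all PGWAT Tbet flox arrays, on no PGWAT control array and on no spleen array. Their PGWAT changes were at least 3.94-fold and 2.72-fold, and they passed in 2 and 0 of the 12 fits without 1 array.

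Other averaged falls were likewise measured in PGWAT. Ccn1, a matrix signalling gene, had 6.00, 6.38 and 7.38 in PGWAT Tbet flox and 10.21, 8.98 and 9.41 in PGWAT control. Pdgfa, a growth factor of stromal cells, had 5.04, 4.98 and 6.09 in PGWAT Tbet flox against 8.24, 8.18 and 7.65 in PGWAT control. Bcl6b, a repressor found in endothelium and T cells, had 5.30, 5.57 and 5.55 in PGWAT Tbet flox and 9.62, 7.32 and 8.20 in PGWAT control. None of the 3 was above background on any spleen array, so their averaged changes of -1.46, -1.42 and -1.48 (limma adjusted p = 0.0381, 0.0381 and 0.0488) are falls in PGWAT counted over both tissues. Pik3ap1, an adaptor of phosphoinositide signalling, had an averaged change of -1.20 with 0.15 in spleen. Fam172a rose by 1.16 and Chp2, a calcineurin-like protein gene, fell by 1.24 averaged (limma adjusted p = 0.0488 for each), with 0.20 and 0.01 in spleen. Fam172a passed in 0 and Chp2 in 1 of the 12 fits without 1 array (limma adjusted p up to 0.152 for each), and a second Fam172a probe changed by -0.27 in PGWAT. Bcl6b passed in 1 of these fits, Ccn1 in 2, Pdgfa and Pik3ap1 in 3 each. Trem2, a receptor of lipid-handling macrophages that was chosen after its values were seen, changed by -2.74 in PGWAT and was above background on no spleen array.

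The remaining lists held few or no calls, where 1.29% of all genes tested passed by the precision-weighted reading and 0.15% with equal shares. By the precision-weighted reading Nr4a2, an orphan nuclear receptor induced by T cell receptor signalling, fell by 0.60 ± 0.12 (limma adjusted p = 0.0336) as 1 of 25 immediate early genes, and Pgk1 rose by 0.52 ± 0.11 (limma adjusted p = 0.0435) as 1 of 13 glycolysis genes. None of 9 type 2, 5 type 17, 10 resting T cell, 15 interferon response, 13 lipid and cholesterol or 12 ribosomal protein genes passed by either reading. The nearest to the threshold with equal shares was Hsd17b7, an enzyme gene of cholesterol synthesis, at 1.52 ± 0.27 (limma adjusted p = 0.0509), with 3.13 in PGWAT and -0.09 in spleen. With the tissues weighted by precision it was Igfbp4, a gene of resting T cells (-0.91 ± 0.22, limma adjusted p = 0.0569). The other Igfbp4 probe changed by -0.99 in PGWAT and 0.089 in spleen. Its precision-weighted change was -0.0034 (limma adjusted p = 0.997 in a fit of all probes). The type 2 genes had medians of 1.15 in PGWAT and -0.02 in spleen, where 3 of 9 matched in sign.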

How the data were processed

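Gene expression of Tregs was measured on 12 Illumina MouseWG-6 arrays, 3 per group; per the labels' protocols, 5 pg of total RNA (unit as given there) was amplified with NuGen Ovation Pico before labelling. For each array the deposited table gives every probe an intensity that was not normalized and a detection p-value, per the file headers; per the submitters' processing notes both came from GenomeStudio, whose version is not given in the sources used here. The authors' processed intensity values served as an alternative.

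The neqc function (limma 3.58.1, R 4.3.3) corrected the background with the detection p-values, added an offset of 16, quantile normalised and took log2. A probe stayed if 3 or more arrays detected it at p under 0.05 (22833 did), and the brightest probe stood for its gene. Of 45281 probes, 34885 carried 1 symbol, 18 several and 10378 none, and 34807 were matched by Entrez ID. The 15308 rows tested were 10882 named genes and 4426 unnamed probes.

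A limma model with 1 mean per group and 1 array weight per tissue gave the change in each tissue, their equal average, their difference and the test in both tissues (two-sided, Benjamini-Hochberg adjusted over all rows, threshold 0.05, 8 residual degrees of freedom). An additive model with 9 gave the precision-weighted change. The code was tested on simulated data.

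Named by rule were calls of the averaged effect with groups apart in both tissues and detected on all arrays of the brighter genotype (up to 12 per direction, filled to 5 by p), the 5 largest other calls per direction, calls in both tissues (up to 15), up to 4 called or otherwise 2 genes per list, Tbx21, Foxp3, Cxcr3, Ifng, Hspa1a, Hspa1b and Il10, and the 5 largest tissue differences per direction. Other genes were chosen after their values were seen. Alternatives changed the weights, scaling, offset, filter, probe choice, replicate block and arrays used. The members, lists, rule and tests were chosen with earlier results of these data known. No unnamed probe is described, as its gene is not given.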

Additional observations from a re-analysis of the deposited data

Results flagged for a closer look

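The genotype effect differed between PGWAT and spleen by a test of the difference itself (limma interaction contrast, adjusted p under 0.05) in 11 of 15308 rows. The value given for each is the PGWAT change minus the spleen change in log2 units. Higher in Tbet flox in PGWAT than in spleen were Fam183b by 3.99 (adjusted p = 0.0016), Mterf1a by 3.84 (0.0121), Mterf1b by 3.39 (0.0158), Tnik by 3.14 (0.0151), Mmrn1 by 2.65 (0.048), Hlf by 2.63 (0.0266) and Mmp25 by 2.20 (0.0444). An unnamed probe differed by 4.30 (0.000454). The difference was -2.97 for Ccn1 (0.0419), -2.70 for Pik3ap1 (0.0254) and -3.32 for another unnamed probe (0.0121). Tnik, a kinase gene, and Mmrn1, the gene of multimerin, had groups apart in both tissues in opposite directions by the probes used. A second Tnik probe changed by 0.48 in PGWAT and 0.056 in spleen. Tnik had 7.49, 7.33 and 7.73 in PGWAT Tbet flox and 4.71, 5.29 and 4.37 in PGWAT control, and in spleen 6.53, 6.80 and 6.85 in Tbet flox and 7.19, 7.18 and 7.06 in control. Mmrn1 had 7.76, 7.10 and 6.91 in PGWAT Tbet flox and 4.83, 4.85 and 5.19 in PGWAT control, and in spleen 7.56, 7.75 and 7.64 in Tbet flox and 8.17, 8.01 and 7.81 in control. Of the 12 fits without 1 array, Fam183b passed in 12, Mterf1a in 9, Mterf1b and Tnik in 8 each, Pik3ap1 in 5, Ccn1 in 2 and Mmrn1 in 1; Hlf and Mmp25 were not refitted for this test.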

How the results depend on the processing

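The count of averaged calls (23; 12 higher, 11 lower) was 198 (96, 102) with tissue and genotype as additive terms, 39 (22, 17) with no array weights, 15 (7 higher) with arrays scaled to 1 median, 40 (20, 20) with quantile normalization within each tissue, 40 (21, 19) with no filter on dim probes, 4 (3, 1) with a detection p under 0.01 on at least 6 arrays, 12 (3 lower) with an intensity trend, 2 (2, 0) with the replicate block within tissue and 3 (2, 1) without PGWAT control 1 and Tbet flox 3, a pair left out after the data were seen. With the authors' processed values 7 were higher, and with 1 weight per array 6 were lower. Single arrays left out gave 7 to 56 (4 to 26 higher, 2 to 30 lower). These counts do not hold the same genes throughout. Of the 23 calls, 2 were among the 198 of the additive fit and 17 among the 39 with no array weights. The 56 without PGWAT control 2 held 17 of the 23, and the 3 without PGWAT control 1 and Tbet flox 3 held 2. The both-tissues test called 0 genes under every alternative run. The precision-weighted count (198) was 0 with no array weights, 379 with 1 weight per array, 70 with median scaling, 96 with normalization within tissues, 362 with the authors' values, 359 with offset 50, 24 with no filter, 301 with the stricter filter, 5 with the replicate block within tissue, and 12 to 220 with single arrays left out. The count of tissue differences (11) was 18, 7, 26, 18, 30, 43, 3, 18, 7, 1 and 2 with no array weights, median scaling, normalization within tissues, the authors' values, offset 50, no filter, the stricter filter, the mean of probes, the trend, the replicate block within tissue and without the 2 doubted arrays, and 2 to 61 with single arrays left out.

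The higher calls were 52.2% of averaged calls, against 46.7% with median scaling, 43.8% with the authors' values and 75% with the trend or the stricter filter; of precision-weighted calls they were 48.5%, and 57.7% with the authors' values. Median scaling moved the median change of all genes to -0.05. Same-numbered arrays deviated from their group means with correlations of -0.20 to 0.076. The groups held too few arrays for these correlations to show whether same-numbered samples were paired, which the labels do not give. The Ifng adjusted p by limma was 0.132 with the replicate block within tissue and 0.0126 with numbers shared across tissues (23 averaged calls).

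Tbx21 turned to 0.060 with median scaling, 0.049 with the authors' values, 0.032 with offset 50 and 0.045 without the doubted pair, and ran from -0.67 to 0.39 with single arrays left out (0.39, 0.23, 0.31 and 0.15 where it turned). Foxp3 turned to -0.0096 in the additive fit, -0.14 as the mean of its probes, -0.25 without the doubted pair and -0.088 and -0.70 by its other probes, and ran from -0.16 to 0.85. In the additive fit the medians of chemokine receptors (-0.16), Schlafen genes (0.20), neutrophil markers (0.19) and mast cell markers (0.14) moved, and Cd8b1 (-0.24), S100a9 (0.54), Tnik (-0.15) and Mmrn1 (-0.12) turned. With single arrays left out the lipid list ran from -0.17 to 0.18, Hba-a1 from -0.54 to 0.037 and Alas2 from -0.38 to 0.39; Lep was 0.0079 without the doubted pair. The cause of these shifts was not tested. The number of arrays and the spread in PGWAT limit the precision: the median SE of a change was 0.53 in PGWAT and 0.17 in spleen.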
